A study of Mus musculus with 18 samples.

Results

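The MHC class I antigen presentation pathway was examined in the transcriptome of mouse macrophages through 9 genes out of the 56748 listed in the count table. The genes were taken by their names: the heavy chains *H2-K1*, *H2-D1* and *H2-T23*, the light chain *B2m*, the peptide transporter *Tap1* and *Tap2*, the loading factor *Tapbp*, the trimming enzyme *Erap1* and the transcriptional activator *Nlrc5*. The study sequenced poly(A) RNA of an established macrophage line, in 18 libraries that form 6 groups of 3 biological replicates. All 18 libraries carry the label WT, and no other genotype is named. It asked how tert-butylhydroquinone (TBHQ), a phenolic antioxidant used in food, alters the response to lipopolysaccharide (LPS), which stands for bacteria, and to Poly(I:C) (PIC), a double-stranded RNA that stands for viruses. Control cells received no treatment. The TBHQ group received 5 µM TBHQ for 4 h. The LPS group was kept for 12 h in 0.1 µg/mL LPS, and the PIC group for as long in 20 µg/mL PIC. The LPS+TBHQ and PIC+TBHQ groups were given TBHQ at 5 µM 4 h before the same 12 h of stimulus. Whether TBHQ was removed before the stimulus is not stated, so its presence before and during the stimulus cannot be told apart.

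A few features of the design bear on every result. The TBHQ stock was dissolved in DMSO while the control group is described as untreated, so an effect of TBHQ and one of the solvent cannot be told apart. Cells given TBHQ alone were taken at 4 h, while the study puts its other groups on a 12 h design, so in the comparison with control TBHQ and the time of harvest cannot be told apart. LPS and PIC were given at different doses, so the agent and its dose cannot be told apart either. The cell line derives from a BALB/c mouse, whereas the reference genome is that of C57BL/6. The H2 heavy chains are highly polymorphic, so their levels relative to each other carry an uncertainty that was not tested. *H2-L*, a relative of *H2-D1* that BALB/c mice carry, has no entry in the count table and was not analysed here. The study describes the libraries as strand-specific, the library notes name directional and non-directional preparations alike, and whether strand was used in counting is not stated.

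The depth was 14423390 to 18851626 counts per library, with a median of 15742337.5. By group the median total was 15410984 in control, 16112546 after TBHQ, 14432272 after LPS, 15502461 after PIC, 16624933 in LPS+TBHQ and 16212079 in PIC+TBHQ. A floor of 3 counts corresponds to 0.159 to 0.208 CPM, which are counts scaled to library size, and covers counting error only. All 9 genes passed the filter on low counts, as did 13691 of the 56748 genes in all. Levels are given as the authors' FPKM, which are fragments scaled to gene length and library size and then by a factor per library. This factor was 0.943 to 0.951 in control and 1.11 to 1.12 after PIC, so it shifts FPKM between groups. Where groups are said to overlap or not, the scale is FPKM unless another is named. Changes are given as log2 fold changes (log2FC) from edgeR, fitted to the counts of the 18 libraries, each with the standard error (±) of the difference between group means of log2 CPM. A change was called at a false discovery rate (FDR) below 0.05 over all genes tested. RNA came from whole cultures, so fewer cells and less RNA per cell cannot be told apart.

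MHC class I molecules show fragments of the cell's own proteins, and of viruses within it, to CD8 T cells. The proteasome cuts proteins in the cytosol, the TAP transporter moves the resulting peptides into the endoplasmic reticulum, aminopeptidases shorten them there, and tapasin holds an empty heavy chain with its light chain at the transporter until a peptide fits. Interferons and NF-κB raise transcription of these genes in most cell types, and NLRC5 acts at the class I promoters together with the RFX, CREB and NF-Y factors.

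The libraries carried the markers of macrophages. All 8 marker genes listed for these cells were tested, with a summed level of 4247 to 5554 FPKM across libraries and *Lyz2* the most abundant at a mean of 4021 FPKM. Markers of other cells were at or near 0. The summed level over 4 genes reached at most 0.354 FPKM for B cells, 0.375 FPKM for dendritic cells, 0.122 FPKM for fibroblasts and 0.0279 FPKM for epithelium. Of the 4 T cell markers, *Cd3e* and *Cd8a* had no count in any library, which at this depth allows up to 0.208 CPM, while *Lck* was present at a mean of 3.52 FPKM. The T cell sum ran from 2.12 to 4.94 FPKM.

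The 9 members spanned a wide range of levels in control cells. *B2m* was highest at 889 ± 22.99 FPKM (mean ± SD, 3 libraries), followed by *H2-D1* at 182 ± 1.42, *Tapbp* at 63.2 ± 1.31, *H2-T23* at 37.97 ± 1.95 and *H2-K1* at 25.3 ± 0.559 FPKM. Lower levels were found for *Erap1* at 14.1 ± 0.722, *Tap1* at 9.84 ± 0.412, *Nlrc5* at 6.84 ± 0.321 and *Tap2* at 6.23 ± 0.215 FPKM. No neighbours in this order overlapped among the control libraries. The order of the 5 most abundant members was the same in all 6 groups. Among the others, *Tap1* stood above *Erap1* after LPS, after PIC and in PIC+TBHQ, and below it in the remaining groups. Neighbours whose libraries overlapped were *Nlrc5* and *Tap2* after LPS and after TBHQ, and *Nlrc5* and *Tap1* in LPS+TBHQ. The mean level of *B2m* was 3.98 to 4.90 times that of *H2-D1* across the groups, lowest in LPS+TBHQ and highest in control. The ratio of *H2-D1* to *H2-K1* ran from 7.18 in control to 9.33 in LPS+TBHQ. That of *Tap1* to *Tap2* ran from 1.22 in LPS+TBHQ to 2.11 after PIC. Summed over the 9 members, the level was lowest in replicate 1 of TBHQ (1003.8 FPKM) and highest in replicate 2 of PIC (2009.7 FPKM).

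LPS and PIC were each compared with control to ask what a bacterial or a viral stimulus does to the pathway. After LPS, 8 of the 9 members rose, against 24% of all genes tested, and 1, *Erap1*, fell, against 24.1% of all genes. The median log2FC was 0.42 for the 9 members and -0.0040 for all genes tested. After PIC, 8 of 9 rose, against 28.6% of all genes, while 30.1% of all genes fell. Here the median log2FC was 0.60 for the 9 members and -0.015 for all genes tested. Scaling affects the second comparison: when total library size replaced TMM, the median of all genes tested shifted by -0.217 in PIC against control and by -0.129 in PIC against LPS. On that scale the median after PIC was 0.39 for the 9 members, and the log2FC was 0.27 for *H2-K1*, 0.28 for *H2-T23*, 0.39 for *Nlrc5*, 0.41 for *B2m*, 0.53 for *H2-D1*, 0.55 for *Tap1* and 0.73 for *Tapbp*, all still called. Relative to that scale 0.14 was the log2FC of *Tap2* after PIC, no longer called, and *Erap1* was called lower at -0.31. The FDR over all settings other than leaving out a library was 5.67e-05 to 0.132 for *Tap2* and 2.49e-06 to 0.301 for *Erap1*. The changes were moderate in size. The study's general threshold is an FDR below 0.01 and an absolute log2FC above 2. At that threshold edgeR called 0 of 9 members for either stimulus, against 1.64% of all genes for LPS and 3.57% for PIC. The largest member log2FC was 0.95, that of *Tapbp* after PIC, or 0.96 by DESeq2, which also left 0 members past that limit. At an unadjusted p below 0.05 edgeR gave 9 members for LPS and 8 for PIC. The share of all genes at that limit was not determined.

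TBHQ was compared with control, and each stimulus after TBHQ with the stimulus alone, to ask what the antioxidant does to resting and to activated cells. With TBHQ alone all 9 members fell, against 14.8% of all genes (14.2% rose), and the median log2FC was -0.31 for the 9 members and -0.000086 for all genes tested. In LPS+TBHQ against LPS all 9 members fell, against 12.2% of all genes (11.7% rose), with a median of -0.57 for the 9 members and 0.0023 for all genes tested. In PIC+TBHQ against PIC 7 members fell, against 15.5% of all genes (15.8% rose), with a median of -0.32 for the 9 members and 0.0089 for all genes tested. The members not called in the last comparison were *Tap2* and *Nlrc5*. By DESeq2 the counts were 9, 8 and 7, in the same order, with no share of all genes determined for that method. The comparisons share the LPS, PIC or control libraries with those of the stimuli, so a high value in a shared library moves both.

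**Figure D1:**
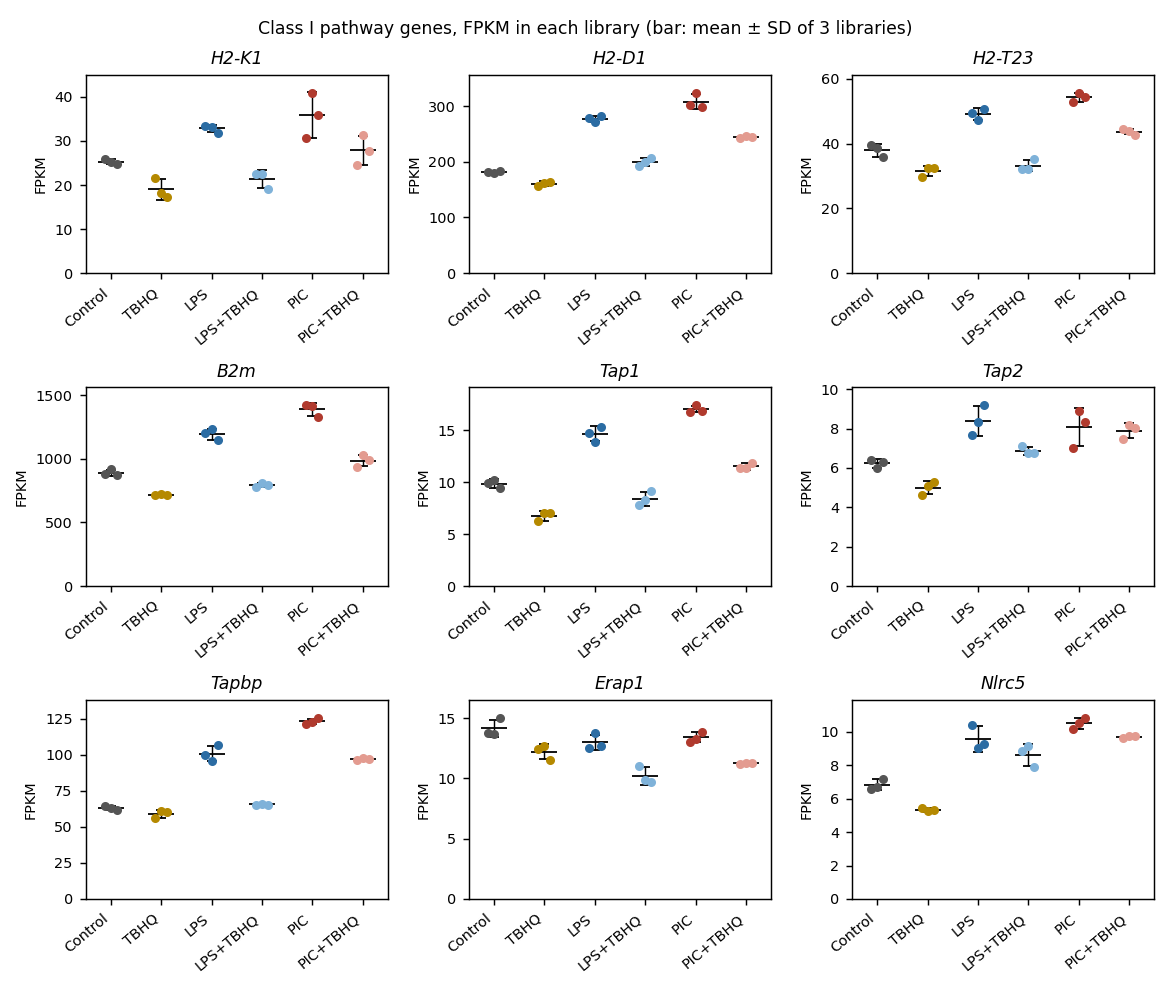
FPKM of the 9 members in each of the 18 libraries (points), with the mean and SD of each group of 3 (bars), 1 panel per gene. The *B2m* panel runs from 712 FPKM in a TBHQ library to 1419 FPKM in a PIC library, and the TBHQ libraries lie below the control libraries in every panel. The share of all genes for which the latter holds was not determined.

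*H2-K1* (ENSMUSG00000061232, chr17:34214991-34219321, minus strand) encodes the classical K heavy chain, which presents peptides to CD8 T cells. Positions are those of the authors' files, whose notes name GRCm38 and mm39 together. They do not share coordinates with the promoter positions given further below, which are those of build GRCm38.p6. Its level was 25.8, 25.3 and 24.7 FPKM in the control libraries, 33.5, 33.2 and 31.9 after LPS and 30.6, 40.98 and 35.9 after PIC. All LPS and PIC libraries lay above control, and the PIC libraries spread around those of LPS. *H2-K1* rose by 0.37 ± 0.029 after LPS (FDR = 0.000192) and by 0.49 ± 0.12 after PIC (FDR = 2.14e-06). With TBHQ the level was 21.6, 18.2 and 17.2 FPKM alone, 22.6, 22.5 and 19.1 in LPS+TBHQ and 24.6, 31.3 and 27.7 in PIC+TBHQ. TBHQ libraries were all below control and LPS+TBHQ libraries all below LPS, while the highest PIC+TBHQ library exceeded the lowest PIC library. The gene fell by 0.41 ± 0.10 with TBHQ alone (FDR = 0.000192), by 0.62 ± 0.081 in LPS+TBHQ against LPS (FDR = 1.68e-07) and by 0.35 ± 0.16 in PIC+TBHQ against PIC (FDR = 0.00062).

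The other classical heavy chain, D, comes from *H2-D1* (ENSMUSG00000073411, chr17:35481706-35486475, plus strand). Control libraries had 182, 180.0 and 183 FPKM, LPS libraries 279, 271 and 282 and PIC libraries 302, 324 and 298. The 3 groups did not overlap, with PIC highest. The log2FC of *H2-D1* was 0.60 ± 0.016 after LPS (FDR = 2.73e-17) and 0.75 ± 0.039 after PIC (FDR = 2.75e-20). TBHQ alone gave 156, 161 and 165 FPKM, LPS+TBHQ 192, 200.5 and 206 and PIC+TBHQ 243, 247 and 244. Each of these groups was below its counterpart without TBHQ in all 3 libraries, and both stimulated groups stayed above the control libraries. *H2-D1* fell by 0.18 ± 0.021 with TBHQ alone (FDR = 8.67e-05). After LPS the TBHQ effect was -0.48 ± 0.033 (FDR = 7.69e-14), and after PIC -0.32 ± 0.038 (FDR = 1.31e-09).

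*H2-T23* (ENSMUSG00000067212, chr17:36340665-36343747, minus strand) encodes the nonclassical chain Qa-1, which presents leader peptides of other class I chains to receptors of natural killer cells. It was measured at 39.6, 38.5 and 35.8 FPKM in control, 49.5, 47.3 and 50.8 after LPS and 52.8, 55.8 and 54.4 after PIC. The groups did not overlap. The gene rose by 0.37 ± 0.053 with LPS (FDR = 2.17e-08) and by 0.50 ± 0.049 with PIC (FDR = 8.36e-12). Values with TBHQ were 29.8, 32.6 and 32.5 FPKM alone, 32.3, 32.2 and 35.2 in LPS+TBHQ and 44.4, 43.97 and 42.8 in PIC+TBHQ. The LPS+TBHQ libraries lay below control, and the PIC+TBHQ libraries above it. The log2FC was -0.27 ± 0.060 for TBHQ alone (FDR = 3.1e-05), -0.57 ± 0.051 after LPS (FDR = 3.62e-12) and -0.30 ± 0.027 after PIC (FDR = 1.88e-06).

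*B2m* (ENSMUSG00000060802, chr2:121978167-121983564, plus strand) encodes β2-microglobulin, the light chain that every class I heavy chain needs to reach the cell surface. It lies outside the H2 region. Its FPKM was 877, 916 and 875 in control, 1199, 1233 and 1144 after LPS and 1419, 1416 and 1328 after PIC. PIC libraries were all above those of LPS, and these all above control. *B2m* rose by 0.42 ± 0.039 after LPS (FDR = 2.1e-12) and by 0.62 ± 0.039 after PIC (FDR = 1.54e-17). The level fell to 712, 722 and 719 FPKM with TBHQ alone, a log2FC of -0.31 ± 0.022 (FDR = 9.94e-09). LPS+TBHQ libraries had 776, 812 and 790.4 FPKM, all below control as well as below LPS, with a log2FC of -0.59 ± 0.038 against LPS (FDR = 8.36e-16). In PIC+TBHQ the values were 938, 1028 and 989 FPKM, between control and PIC without overlap, and the gene fell by 0.48 ± 0.050 against PIC (FDR = 1.45e-13).

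*Tap1* (ENSMUSG00000037321, chr17:34406527-34416199, plus strand) and *Tap2* (ENSMUSG00000024339, chr17:34422501-34435295, plus strand) encode the subunits of the transporter that carries peptides into the endoplasmic reticulum. *Tap1* was found at 9.93, 10.2 and 9.39 FPKM in control, 14.7, 13.9 and 15.3 after LPS and 16.8, 17.4 and 16.9 after PIC, without overlap between the groups. It rose by 0.57 ± 0.054 after LPS (FDR = 1.16e-10) and by 0.77 ± 0.039 after PIC (FDR = 1.57e-14). With TBHQ *Tap1* had 6.21, 7.01 and 6.99 FPKM alone, 7.76, 8.26 and 9.13 in LPS+TBHQ and 11.3, 11.3 and 11.9 in PIC+TBHQ. The LPS+TBHQ libraries were below every control library and the PIC+TBHQ libraries above every one. Its TBHQ effects were the largest falls of any member in the comparisons of TBHQ with control, LPS+TBHQ with LPS and PIC+TBHQ with PIC, at -0.55 ± 0.067 (FDR = 4.84e-09), -0.81 ± 0.080 (FDR = 7.94e-14) and -0.55 ± 0.029 (FDR = 4.31e-10).

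For the partner subunit *Tap2* the FPKM was 6.39, 5.99 and 6.32 in control, 7.67, 8.32 and 9.17 after LPS and 6.99, 8.87 and 8.34 after PIC. Both stimulated groups were above control and overlapped each other. *Tap2* rose by 0.42 ± 0.081 after LPS (FDR = 4.64e-05) and by 0.36 ± 0.11 after PIC (FDR = 0.00028). TBHQ alone left 4.62, 5.06 and 5.29 FPKM, all below control, with a log2FC of -0.32 ± 0.063 (FDR = 0.00356). LPS+TBHQ gave 7.12, 6.75 and 6.75 FPKM, below LPS, with -0.29 ± 0.079 (FDR = 0.00648). That call was lost without replicate 3 of LPS, where the log2FC was -0.22, and the FDR ran from 0.00286 to 0.0671 over the libraries left out. In PIC+TBHQ the values of 7.49, 8.19 and 8.01 FPKM overlapped those of PIC, and the log2FC of -0.022 ± 0.11 was not called (FDR = 0.866; -0.13 to 0.033 with single libraries left out and 0.047 by library total). The difference between the TBHQ effects after PIC and after LPS, 0.27 ± 0.13, was not called either (FDR = 0.25).

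Tapasin, the product of *Tapbp* (ENSMUSG00000024308, chr17:34134873-34148266, plus strand), bridges heavy chain and transporter and favours peptides that bind well. Its level rose from 64.4, 63.4 and 61.8 FPKM in control to 99.7, 96.03 and 107 after LPS and 122, 122 and 125 after PIC. The groups were fully apart. These were the largest rises among the 9 members in the LPS and the PIC comparison with control: 0.67 ± 0.047 after LPS (FDR = 2.73e-17) and 0.95 ± 0.022 after PIC (FDR = 4e-22). With TBHQ alone the libraries had 55.8, 60.9 and 60.4 FPKM, each below the control libraries. The log2FC of -0.10 ± 0.043 passed the threshold by little (FDR = 0.0414). It was -0.087 without replicate 1 of control, -0.10 without replicate 2 of control and -0.063 without replicate 1 of TBHQ, and was then not called (FDR over the libraries left out 0.0299 to 0.272). It was also lost with RLE scaling, without the filter on low counts and in limma, with an FDR of 0.0303 to 0.069 over these and the other settings. LPS+TBHQ gave 65.3, 65.9 and 65.4 FPKM, just above the control libraries, a log2FC of -0.62 ± 0.043 against LPS (FDR = 9.28e-16). PIC+TBHQ gave 96.7, 97.7 and 97.1 FPKM, and the gene fell by 0.33 ± 0.012 against PIC (FDR = 4.32e-09).

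*Erap1* (ENSMUSG00000021583, chr13:74787687-74841320, plus strand) encodes the aminopeptidase that trims peptides inside the endoplasmic reticulum. It differed from the other members in its response to the stimuli. The level was 13.7, 13.7 and 14.97 FPKM in control, 12.5, 13.7 and 12.7 after LPS and 13.1, 13.3 and 13.9 after PIC, and on this scale both stimulated groups overlapped control. On the TMM scale the libraries of LPS and of PIC lay below control. The log2FC of -0.13 ± 0.060 after LPS was called lower (FDR = 0.0313), whereas -0.095 ± 0.048 after PIC was not called (FDR = 0.111), and the difference between PIC and LPS was 0.038 ± 0.050 (FDR = 0.645). With single libraries left out the value after PIC ran from -0.12 to -0.053 and that difference from 0.012 to 0.085. By library total they were -0.31 and -0.092. The LPS call rested on single libraries. It was -0.087 without replicate 3 of control, -0.10 without replicate 1 of LPS and -0.10 without replicate 3 of LPS, none of which passed (FDR over the libraries left out 0.0144 to 0.216). DESeq2, limma and a minimum mean of 50 counts lost it too, with an FDR of 0.000555 to 0.096 over all settings of that kind. By library total it was -0.22 and called. The falls with TBHQ passed the FDR threshold in every other setting and with each library left out. Values were 12.4, 12.7 and 11.5 FPKM with TBHQ alone, 11.02, 9.88 and 9.66 in LPS+TBHQ and 11.2, 11.3 and 11.3 in PIC+TBHQ, each group below its counterpart. *Erap1* fell by 0.22 ± 0.061 with TBHQ alone (FDR = 0.00111), by 0.35 ± 0.073 after LPS (FDR = 2.33e-06) and by 0.24 ± 0.025 after PIC (FDR = 0.000365).

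*Nlrc5* (ENSMUSG00000074151, chr8:95160984-95253900, plus strand) encodes the NOD-like receptor family protein that activates transcription of the class I genes. Its FPKM was 6.60, 6.71 and 7.20 in control, 10.4, 9.04 and 9.25 after LPS and 10.2, 10.6 and 10.8 after PIC. Both stimulated groups were above control and overlapped each other. *Nlrc5* rose by 0.48 ± 0.072 after LPS (FDR = 3.82e-09) and by 0.60 ± 0.045 after PIC (FDR = 6.54e-12). TBHQ alone gave 5.45, 5.23 and 5.33 FPKM, clear of the control libraries, and a log2FC of -0.36 ± 0.041 (FDR = 6.9e-06). In LPS+TBHQ the values of 8.84, 9.16 and 7.90 FPKM overlapped those of LPS. The log2FC of -0.15 ± 0.089 was called lower (FDR = 0.0364), but it was -0.088 and not called without replicate 1 of LPS, -0.091 and not called without replicate 3 of LPS+TBHQ (FDR over the libraries left out 0.016 to 0.32), and it failed in 6 of 9 other settings, DESeq2 among them, with an FDR of 0.0249 to 0.112. PIC+TBHQ libraries, at 9.63, 9.74 and 9.75 FPKM, were all below PIC, and the log2FC of -0.11 ± 0.025 was not called (FDR = 0.134, and -0.037 by library total). The TBHQ effects after PIC and after LPS differed by 0.046 ± 0.092, which was not called (FDR = 0.851) and ran from -0.022 to 0.090 with single libraries left out.

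**Figure D2:**
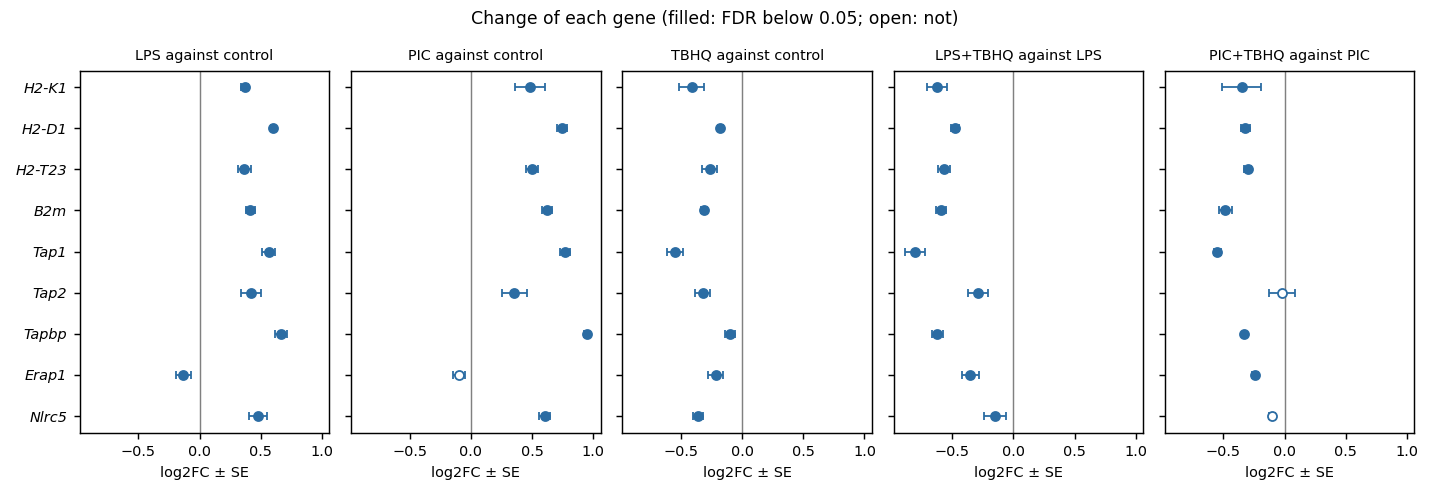
Log2FC of the 9 members from edgeR in 5 comparisons, with the standard error as a bar, and filled points where the FDR is below 0.05. The rises after LPS and PIC reach 0.67 and 0.95, both for *Tapbp*, and the falls with TBHQ reach -0.81 for *Tap1* in LPS+TBHQ against LPS.

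PIC was compared with LPS directly, without and with TBHQ, to ask whether the stimuli differ. Without TBHQ 5 members were higher after PIC, against 14.9% of all genes (12.8% were lower), and the median log2FC was 0.13 for the 9 members and -0.0087 for all genes tested. They were *Tapbp* (0.28 ± 0.044, FDR = 1.79e-07), *B2m* (0.21 ± 0.046, FDR = 1.34e-05), *Tap1* (0.21 ± 0.043, FDR = 0.00351), *H2-D1* (0.14 ± 0.041, FDR = 0.0012) and *H2-T23* (0.13 ± 0.036, FDR = 0.0243). On the scale of total library size *Tapbp* alone among the 9 was called, at 0.15, while the values of *B2m* (0.080), *Tap1* (0.077), *H2-D1* (0.013) and *H2-T23* (0.0041) were not. The call for *H2-T23* was also lost without replicate 2 of LPS (0.11) or replicate 2 of PIC (0.12). Calls were gained for *H2-K1* without replicate 1 of PIC (0.22, but 0.013 without replicate 2 of PIC) and for *Nlrc5* without replicate 1 of LPS (0.19).

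Between the groups given TBHQ first, 8 members were higher in PIC+TBHQ than in LPS+TBHQ, against 11.9% of all genes (8.39% were lower), with a median log2FC of 0.32 for the 9 members and 0.0061 for all genes tested. The largest of these was *Tapbp* at 0.57 ± 0.0052 (FDR = 1.33e-14), then *Tap1* at 0.46 ± 0.073 (FDR = 9.76e-08) and *H2-T23* at 0.40 ± 0.045 (FDR = 1.93e-08). *H2-K1* (0.39 ± 0.13), *B2m* (0.32 ± 0.042) and *H2-D1* (0.30 ± 0.030) followed. The smallest of the 8, *Nlrc5* (0.17 ± 0.064, FDR = 0.0173) and *Erap1* (0.15 ± 0.058, FDR = 0.0458), depended on single libraries. *Nlrc5* was not called without replicate 3 of LPS+TBHQ (0.11), replicate 2 of PIC+TBHQ (0.17) or replicate 3 of PIC+TBHQ (0.17). It was not called with total library size either (0.087, FDR = 0.261), nor in limma with log2(FPKM + 1) (0.15) or log2(FPKM + 0.1) (0.17). *Erap1* was not called without replicate 2 (0.12) or 3 (0.11) of LPS+TBHQ or replicate 1 (0.15), 2 (0.14) or 3 (0.14) of PIC+TBHQ, nor in 7 of 9 other settings. With total library size it was 0.060 (FDR = 0.461). The members called numbered 6 with total library size and 7 with RLE scaling. *Tap2*, at 0.20 ± 0.045, was not called (FDR = 0.0698), and was 0.12 by library total.

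Whether TBHQ lowered the members by a different amount after PIC than after LPS was tested as the difference between its effects after PIC and after LPS. A positive value means a smaller fall after PIC. Of the 9 members 2 passed, against 0.825% of all genes in that direction and 1.01% in the other, and the median difference was 0.25 for the 9 members and 0.0091 for all genes tested. They were *Tapbp*, with a difference of 0.29 ± 0.045 (FDR = 0.000724), and *H2-T23*, with 0.27 ± 0.058 (FDR = 0.0221). *Tapbp* passed in every other setting and with each library left out. For *H2-T23* the call was lost in limma and in 6 of 12 cases of leaving out a library: replicate 3 of LPS (0.23), replicates 1 (0.23) and 3 (0.25) of PIC, replicates 1 (0.24) and 2 (0.24) of LPS+TBHQ and replicate 1 of PIC+TBHQ (0.25). The FDR over the libraries left out was 0.00897 to 0.0962. The remaining differences were not called: 0.27 ± 0.18 for *H2-K1* (FDR = 0.243), 0.16 ± 0.051 for *H2-D1* (FDR = 0.0848), 0.25 ± 0.085 for *Tap1* (FDR = 0.0984), 0.11 ± 0.062 for *B2m* (FDR = 0.315) and 0.11 ± 0.077 for *Erap1* (FDR = 0.556). *H2-D1* passed without replicate 2 of PIC (0.18), with DESeq2 (0.14) and with total library size (0.20). *Tap1* passed without replicate 3 of LPS+TBHQ (0.32) and with total library size (0.30), and *H2-K1* passed without the filter on low counts (0.25). With single libraries left out the difference ran over 0.16 to 0.36 for *H2-K1*, 0.12 to 0.18 for *H2-D1*, 0.20 to 0.32 for *Tap1*, 0.16 to 0.33 for *Tap2*, 0.060 to 0.14 for *B2m* and 0.048 to 0.17 for *Erap1*. The count of members passing then ran from 1 to 3.

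Set against untreated cells, the groups that received TBHQ and a stimulus differed by gene, described here by FPKM without a test. The share of all genes whose libraries lie apart in the same way was not determined. The counts of members in this paragraph therefore describe these genes alone. In LPS+TBHQ every library was below every control library for *H2-K1*, *H2-T23*, *B2m*, *Tap1* and *Erap1*, and above for *H2-D1*, *Tap2*, *Tapbp* and *Nlrc5*. In PIC+TBHQ every library was above control for 7 members, below it for *Erap1* and overlapping it for *H2-K1*. These places depend on the factor per library. With counts divided by the library total alone, *H2-D1* and *Tapbp* in LPS+TBHQ overlapped control, and so did *H2-T23*, *B2m* and *Tap1* in PIC+TBHQ, which left 4 members above control there. On that scale *B2m* had 764, 841 and 807 CPM in PIC+TBHQ and 793, 833 and 798 CPM in control. Likewise *H2-D1*, *H2-T23*, *B2m* and *Tap1* then overlapped between PIC and LPS, *Tap2*, *Nlrc5* and *Erap1* between PIC+TBHQ and LPS+TBHQ, *Tap2* between PIC and control, and *Nlrc5* between PIC+TBHQ and PIC. *Erap1* then lay below control after LPS and after PIC.

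Across the 18 libraries the members moved together, with *Erap1* apart. Among the 28 pairs of the other 8 members Pearson's r of log2 CPM was 0.758 to 0.985, with a median of 0.899. *Erap1* had an r of -0.111 to 0.443 with them. These values describe libraries that fall into 6 treatment groups and share their scaling, and they carry no test.

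The pathway around the members was described through lists of related genes, by the number called and the median log2FC, beside the values for all genes given above. Those values for all genes were computed with TMM. They were 24% higher and 24.1% lower after LPS, 28.6% and 30.1% after PIC, and 14.2% and 14.8% with TBHQ alone. In LPS+TBHQ against LPS they were 11.7% and 12.2%, and in PIC+TBHQ against PIC 15.8% and 15.5%. The shares of all genes called with total library size or RLE scaling were not determined. List counts on those scales therefore show how calls move with scaling and are no result about a list. With total library size the median of all genes tested was -0.092 after LPS, -0.23 after PIC and -0.0032 with TBHQ alone. It was 0.027 in LPS+TBHQ against LPS and 0.078 in PIC+TBHQ against PIC. The proteasome supplies the peptides. Of 7 genes of the immunoproteasome and its activator PA28, 5 rose and 1 fell after LPS (median log2FC 0.28), and 6 rose and 1 fell after PIC (median 0.40). In each of the comparisons of TBHQ with control, LPS+TBHQ with LPS and PIC+TBHQ with PIC, 5 fell (medians -0.24, -0.66 and -0.37). With total library size the rises numbered 4 after LPS (median 0.19) and 4 after PIC (median 0.18). The falls in PIC+TBHQ against PIC then numbered 4. *Psmb10*, a catalytic subunit, had 28.1, 27.6 and 24.6 FPKM in control and 44.3, 47.7 and 45.1 after PIC, without overlap, a log2FC of 0.76 ± 0.068 (FDR = 4.38e-14). *Psme2*, a PA28 subunit, went from 56.6, 55.3 and 57.3 to 105, 109.8 and 75.3 FPKM (0.76 ± 0.17, FDR = 9.73e-08), with replicate 3 of PIC well below the other PIC libraries. The rises of *Psme1* (0.55 ± 0.069, FDR = 7.26e-11) and *Psmb8* (0.40 ± 0.065, FDR = 1.2e-07) were smaller. By library total the log2FC after PIC was 0.54 for *Psmb10*, 0.54 for *Psme2*, 0.33 for *Psme1* and 0.18 for *Psmb8*, all still called. *Psmb9*, a catalytic subunit whose gene borders *Tap1*, fell most with TBHQ: from 6.08, 6.28 and 7.03 FPKM after LPS to 3.32, 3.14 and 3.61 in LPS+TBHQ (-0.95 ± 0.087, FDR = 1.31e-08), and from 7.39, 8.36 and 6.94 after PIC to 4.46, 4.52 and 5.13 in PIC+TBHQ (-0.67 ± 0.10, FDR = 3.17e-06). Neither pair of groups overlapped. For *Psmb10* the TBHQ effects after PIC and LPS differed by 0.39 ± 0.072 (FDR = 0.00334), a gene singled out after its value was seen. It was called in every other setting and with each library left out.

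The 3 constitutive catalytic subunits, which the immunoproteasome subunits replace, all rose after LPS (median 0.22) and after PIC (median 0.36). The LPS median was 0.13 by library total, with all 3 still called. *Psmb6* rose by 0.47 ± 0.055 after PIC (FDR = 9.33e-13), *Psmb7* by 0.36 ± 0.044 (FDR = 4.71e-09) and *Psmb5* by 0.26 ± 0.082 (FDR = 9.07e-05). By library total the median after PIC was 0.15, with 0.25 for *Psmb6* and 0.15 for *Psmb7*, both still called, and 0.044 for *Psmb5*, not called (FDR over such settings 4.96e-06 to 0.48). With TBHQ alone 1 of 3 fell. LPS+TBHQ against LPS gave 1 rise and 1 fall, and PIC+TBHQ against PIC 1 rise and 2 falls. The rise was that of *Psmb5* in both: from 92.2, 87.5 and 89.9 to 99.2, 96.5 and 107 FPKM after LPS (0.16 ± 0.049, FDR = 0.0201) and from 95.1, 93.6 and 80.7 to 106, 104 and 107 FPKM after PIC (0.25 ± 0.078, FDR = 0.000314). The call after LPS was lost without replicate 2 of LPS (0.15) or replicate 3 of LPS+TBHQ (0.12) and in limma. The value after PIC stayed called but ran from 0.16 to 0.28 with single libraries left out.

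Among 7 other peptide-trimming enzymes, 4 rose after LPS (median 0.12), and 6 rose and 1 fell after PIC (median 0.26). TBHQ alone gave 2 rises. LPS+TBHQ against LPS gave 2 rises and 1 fall, and PIC+TBHQ against PIC 2 and 3. With total library size 2 rose and 1 fell after LPS (median 0.031), 2 rose and 1 fell after PIC (median 0.044), 0 fell in LPS+TBHQ against LPS, and 3 rose and 1 fell in PIC+TBHQ against PIC. With RLE scaling 5 rose after LPS and 4 fell in PIC+TBHQ against PIC. *Lnpep*, an aminopeptidase of endosomes, went from 10.2, 10.3 and 10.9 FPKM in control to 16.9, 16.4 and 17.1 after PIC (0.67 ± 0.033, FDR = 1.78e-15) and to 12.3, 12.7 and 12.96 in PIC+TBHQ (-0.40 ± 0.028 against PIC, FDR = 4.04e-09), with no overlap at either step. The cytosolic *Npepps* rose by 0.39 ± 0.028 after PIC (FDR = 7e-09), and *Tpp2* by 0.27 ± 0.017 (FDR = 3.54e-07). By library total *Tpp2* was 0.048 and not called (FDR over such settings 6.79e-12 to 0.297), while *Npepps* at 0.17 and *Lnpep* at 0.45 were. *Thop1*, which degrades peptides, fell by 0.31 ± 0.048 after PIC (FDR = 0.00011; -0.53 by library total) and was higher in LPS+TBHQ than after LPS (0.23 ± 0.11, FDR = 0.00605). The latter was lost without replicate 2 of LPS, at 0.13. For *Lnpep* the TBHQ effects differed by -0.26 ± 0.078 between PIC and LPS (FDR = 0.0215), again singled out after its value was seen. That call was lost in 4 of 12 cases of leaving out a library, in limma and with total library size (-0.21).

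Of 8 genes for folding and quality control of class I in the endoplasmic reticulum, 1 rose and 5 fell after LPS (median -0.11), and 3 rose and 4 fell after PIC (median -0.043). TBHQ alone gave 1 rise and 4 falls, and 1 gene rose and 1 fell in LPS+TBHQ against LPS and likewise in PIC+TBHQ against PIC. After scaling by library total none rose and 5 fell after PIC (median -0.26), 6 fell after LPS (median -0.19) and 5 with TBHQ alone. On that scale 2 rose in LPS+TBHQ against LPS, and 5 rose and 1 fell in PIC+TBHQ against PIC. The median of all genes tested in the latter comparison was then 0.078. With RLE scaling the falls after PIC numbered 2. *Tapbpl*, which encodes a relative of tapasin that edits peptides away from the transporter, rose by 0.35 ± 0.080 after PIC (FDR = 0.0021), and was 0.13 and not called with total library size. The chaperone *Hspa5* went from 817, 814 and 813 FPKM in control to 968, 992 and 987 after PIC (0.25 ± 0.011, FDR = 1.56e-10) and to 862, 886 and 875 in PIC+TBHQ (-0.16 ± 0.014 against PIC, FDR = 9.62e-06). With total library size its log2FC after PIC was 0.035 and not called, and that of PIC+TBHQ against PIC was -0.088 and still called. *Uggt1*, which encodes a sensor of misfolded glycoproteins, fell by 0.26 ± 0.040 after PIC (FDR = 5.2e-07, and -0.48 by library total) and was higher by 0.21 ± 0.027 in LPS+TBHQ than after LPS (FDR = 0.000114). *Bcap31*, which encodes an export receptor, had a log2FC of 0.13 ± 0.029 after PIC (FDR = 0.0119). It was 0.10 and not called without replicate 3 of control, and -0.089 with total library size.

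Other class I and class I-like chains were sparse. Of 20 genes 12 were tested, and *H2-T3*, *H2-M5*, *H2-M9* and *Cd1d2* had no count in any library. The most abundant was *H2-T24*, at a mean of 61.9 FPKM. After LPS 3 of the 12 rose and 3 fell (median -0.11), near the 24% and 24.1% of all genes. After PIC 6 rose and 3 fell (median 0.55), against 28.6% and 30.1% of all genes. TBHQ alone lowered 6, and TBHQ lowered 5 after LPS and 5 after PIC, where 2 rose. With RLE scaling the rises in PIC+TBHQ against PIC numbered 0, and 2 fell after PIC. Scaled by library total, 2 rose after LPS (median -0.20) and 4 fell after PIC (median 0.33). *H2-T22* encodes a ligand of γδ T cells. It went from 7.21, 7.35 and 7.68 FPKM in control to 15.3, 16.8 and 14.9 after PIC (1.06 ± 0.060, FDR = 5.58e-15), without overlap. In LPS+TBHQ it had 7.57, 8.53 and 7.65 FPKM against 15.3, 14.1 and 14.4 after LPS, a log2FC of -0.89 ± 0.063 (FDR = 4.4e-12). *H2-Q6* rose by 0.90 ± 0.24 after PIC (FDR = 0.00157). The fall of *Mr1*, which encodes a chain that presents microbial vitamin metabolites, was -1.02 ± 0.24 after PIC (FDR = 0.000257), and that of *Hfe*, which encodes a regulator of iron uptake, -0.95 ± 0.081 (FDR = 6.45e-07). In limma on log2(FPKM + 1) they were -0.36 and -0.62, both still called. *H2-Q7* had 0, 54 and 14 counts after PIC and 4, 0 and 1 counts in PIC+TBHQ, groups that overlap, and its fitted log2FC of -3.72 (FDR = 0.0201) depends on the treatment of low counts. It was -1.96 and not called without replicate 2 of PIC, was also lost without replicate 2 (-3.21) or replicate 3 (-3.44) of PIC+TBHQ, and failed in DESeq2 and limma (FDR over settings other than leaving out a library 8.52e-09 to 0.301).

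Of 16 factors that act at class I promoters, 6 rose and 6 fell after LPS (median 0.023), and 7 rose and 5 fell after PIC (median 0.12). Of all genes 24% rose and 24.1% fell after LPS, and 28.6% rose and 30.1% fell after PIC. The counts of the list were 5 and 3 with TBHQ alone, against 14.2% and 14.8% of all genes. They were 1 and 5 in LPS+TBHQ against LPS, against 11.7% and 12.2%. In PIC+TBHQ against PIC 7 fell, against 15.5%. Scaling moves these counts. By library total 5 rose and 8 fell after LPS (median -0.065), 6 rose and 7 fell after PIC (median -0.10), and 1 rose and 5 fell in PIC+TBHQ against PIC. With RLE scaling 9 rose and 4 fell after PIC, 6 rose with TBHQ alone and 8 fell in PIC+TBHQ against PIC. *Nfkb1*, an NF-κB subunit gene, went from 13.5, 12.2 and 12.1 FPKM in control to 29.9, 30.7 and 30.4 after PIC, the largest change of the list in that comparison (1.25 ± 0.055, FDR = 7.5e-25). *Stat2*, which encodes a transducer of interferon signals, rose from 13.6, 13.1 and 14.3 to 25.4, 25.7 and 24.8 FPKM (0.87 ± 0.042, FDR = 3.24e-17). In LPS+TBHQ *Stat2* had 12.3, 11.4 and 11.7 FPKM against 22.2, 19.8 and 19.7 after LPS (-0.80 ± 0.062, FDR = 5.06e-15). *Ezh2*, which encodes a histone methyltransferase that represses class I genes in tumour cells, fell by 0.82 ± 0.055 after PIC (FDR = 2.06e-14). The TBHQ effects after PIC and LPS differed by 0.28 ± 0.086 for *Stat2* (FDR = 0.028) and by -0.22 ± 0.040 for *Nfkb1* (FDR = 0.0263), both singled out after their values were seen. The call for *Stat2* was lost in 7 of 12 cases of leaving out a library, in limma and with the compared groups only. For *Nfkb1* it was lost in 3 of 12, in limma and with total library size (-0.18).

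Class II presentation was mostly below the filter. Of 13 genes 4 were tested, and the chains *H2-Aa*, *H2-Ab1*, *H2-Eb1*, *H2-Ea*, *H2-DMb1*, *H2-Oa* and *H2-Ob* had at most 3 counts in any library. Of the 4, 1 rose and 2 fell after LPS, and 2 rose and 2 fell after PIC. TBHQ alone lowered 2, and 1 rose and 2 fell with TBHQ after LPS and likewise after PIC. By library total none rose after PIC, and 2 rose and 1 fell in PIC+TBHQ against PIC. The protease *Ctss* was lower by 0.40 ± 0.045 in LPS+TBHQ than after LPS (FDR = 8.25e-12), by 0.38 ± 0.023 in PIC+TBHQ than after PIC (FDR = 2.45e-11) and by 0.15 ± 0.034 after PIC than in control (FDR = 0.000165, and -0.37 by library total). The thiol reductase *Ifi30* fell by 0.68 ± 0.055 after PIC (FDR = 5.48e-16). *Cd74*, the invariant chain, had 0.18 ± 0.037 after PIC (FDR = 0.00102) but -0.036 with total library size, and a difference between its TBHQ effects of 0.26 ± 0.080 (FDR = 0.0305), singled out after it was seen. The latter was lost in 6 of 12 cases of leaving out a library, in limma and with the compared groups only. *H2-DMa* rose by 0.46 ± 0.094 after PIC (FDR = 0.0135), and was not called without replicate 2 of control (0.41) or with total library size (0.24). In limma on log2(FPKM + 1) it was 0.27.

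The macrophage markers did not move in 1 direction. Of 8, 2 rose and 3 fell after LPS, 4 rose and 3 fell after PIC, and 1 rose and 4 fell with TBHQ alone. The shares of all genes were 24% and 24.1% after LPS, 28.6% and 30.1% after PIC, and 14.2% and 14.8% with TBHQ alone. With TBHQ 3 rose and 3 fell after LPS and likewise after PIC. Scaled by library total, 3 rose and 4 fell after PIC, 5 fell with TBHQ alone, and 4 rose and 2 fell with TBHQ after LPS. *Adgre1* (1.86 ± 0.061, FDR = 2.75e-27) and *Itgam* (1.25 ± 0.045, FDR = 4.54e-20) rose after PIC, and *Csf1r* (-0.85 ± 0.055, FDR = 1.33e-20) and *Fcgr1* (-0.55 ± 0.078, FDR = 1.38e-07) fell. *Fcgr1* fell most of the list with TBHQ, by 1.37 ± 0.081 after LPS (FDR = 1.39e-15) and 1.08 ± 0.081 after PIC (FDR = 5e-12). *Lck* rose by 0.86 ± 0.063 after PIC (FDR = 3.24e-08) and fell by 0.42 ± 0.091 in LPS+TBHQ against LPS (FDR = 0.00445). *Zbtb46*, the dendritic cell marker that passed the filter, had 14, 15 and 13 counts in control and 22, 22 and 26 after PIC, a log2FC of 0.84 ± 0.077 (FDR = 0.0337). This call was lost with each of the 6 libraries left out (FDR = 0.054 to 0.0968), in DESeq2, in limma, without the filter on low counts and with total library size (0.62). A difference between TBHQ effects was called for *Ptprc* (-0.21 ± 0.044, FDR = 0.0296), singled out after it was seen, and lost in 4 of 12 cases of leaving out a library, in limma and with total library size (-0.16). A part of these shifts in the results for the members was not tested.

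The genes whose pattern over the 18 libraries was most like that of a member were found by Pearson's r of log2 CPM, among tested genes with a mean of at least 50 counts, as a description. They were *Il18* (r = 0.944) for *H2-K1*, *Oas1a* (r = 0.997) for *H2-D1*, *Ifit3* (r = 0.985) for *H2-T23* and *Epsti1* (r = 0.983) for *B2m*. For *Tap1* it was *Usp18* (r = 0.988), for *Tap2* *Stx5a* (r = 0.952), for *Tapbp* *Gbp3* (r = 0.992), for *Nlrc5* *Anxa6* (r = 0.982) and for *Erap1* *Atp6v0d2* (r = 0.933). Nearest to the mean of the 9 standardised members were *Ube2l6* (r = 0.992), *Ifi204* (r = 0.990), *Ifi209* (r = 0.988), *Slfn5* (r = 0.987) and *Usp18* (r = 0.986). *Isg20*, *Stat2*, *Sp100*, *Dhx58* and *Samd9l* came next, down to an r of 0.982. All of these values come from libraries that share groups and scaling.

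Related sequences limit how firmly fragments can be assigned to the heavy chains. In words of 50 bases from the transcripts of GENCODE M21, 13.6% of *H2-T23*, 12.8% of *H2-D1* and 9.63% of *H2-K1* occurred in another gene, against 2.87% of *Tapbp*, 0.655% of *Tap2* and 0.442% of *Tap1*. No word of *B2m*, *Nlrc5* or *Erap1* was shared. Among the other chains the share was 34.5% for *H2-T22*, mostly with *H2-T10*, 31.97% for *H2-Q6* and 26.4% for *H2-Q7*, so their values carry more uncertainty. By position 7 of the 9 members overlap another listed gene. *B2m* (5398 bases) and *H2-T23* (3083 bases) are overlapped over their whole length on the opposite strand, by *Patl2* and *A930015D03Rik*, which had a mean of 1.67 and 2.83 counts. *Tap2* is overlapped by genes with a mean of at most 2.89 counts, and *Nlrc5* shares 748 bases with *9330175E14Rik* on the opposite strand (a mean of 63.7 counts). *Tap1* shares 212 bases with *Psmb9* on the opposite strand (a mean of 299.8 counts for *Psmb9* and 959 for *Tap1*), and *Erap1* shares 834 bases with *Cast* on the opposite strand (1207 and 1409.8 counts). *Tapbp* shares 3422 bases with *Zbtb22* on the same strand (434 and 4758 counts). What these overlaps contribute to the counts was not tested.

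The class I genes are known for a shared promoter layout, so the RefSeq promoters (build GRCm38.p6) were searched for its motifs. The search was made after the members were seen to move together, and a link of the motifs to that was not tested. The sequences are those of the C57BL/6 reference, not of the BALB/c line. The window was the 250 bases before the start of transcription, on both strands, and 7 of the 9 members were in the promoter table, *Tap2* and *Nlrc5* not being in it. *H2-K1* has more than 1 promoter there and the first was used. The IRF core AANNGAAA was in 4 members (*B2m*, *H2-K1*, *H2-D1* and *H2-T23*) and in 21.6% of 27025 promoters. The κB motif GGGANNNNC was in 6, all but *Tap1*, and in 48.5% of promoters. The CRE-like motif TGACG was in 4 (*B2m*, *H2-K1*, *Tap1* and *H2-D1*) and in 17.9%. The CCAAT box was in 6, all but *Erap1*, and in 34.5%. The GAS motif TTCNNNGAA, known from interferon-γ signalling, was in no member promoter searched and in 7.18% of all, which says only that these letters are not in this window. The antioxidant response core TGACNNNGC was in *H2-K1* alone among the 7, and in 10.2% of all. TGACG and TGACNNNGC begin with the same letters, and the match in *H2-K1* shares a base with its TGACG match. A match is a description of sequence and not a binding site. In *H2-K1* and *H2-D1* the κB, IRF and TGACG matches and 1 CCAAT match each stood in the same order with the same spacing: the κB matches at -126 to -118 and -110 to -102 of *H2-K1* recur at -186 to -178 and -170 to -162 of *H2-D1*, counted from the start of transcription. *H2-D1* has a further CCAAT match at -53 to -49. At the best ungapped shift within 100 bases, which was 60 bases, 166 of 190 bases (87.4%) were identical, a window chosen after the data were seen. The promoter of *Tap1* overlaps that of *Psmb9*, which is transcribed away from it. Promoters of both classical heavy chains, the light chain and a transporter gene, which between them hold every motif in capitals, are printed 5′ to 3′ on the strand of the gene, with capitals for matches to AANNGAAA, GGGANNNNC, TGACG and CCAAT on either strand: *H2-K1* at chr17:34000348-34000597, minus strand, *H2-D1* at chr17:35262844-35263093, plus strand, *B2m* at chr2:122147437-122147686, plus strand and *Tap1* at chr17:34187306-34187555, plus strand.
H2-K1: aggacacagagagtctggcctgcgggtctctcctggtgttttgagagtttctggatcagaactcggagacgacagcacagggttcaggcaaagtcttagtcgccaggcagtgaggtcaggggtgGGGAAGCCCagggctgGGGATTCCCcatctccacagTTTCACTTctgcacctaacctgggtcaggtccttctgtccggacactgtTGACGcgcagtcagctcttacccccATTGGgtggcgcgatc
H2-D1: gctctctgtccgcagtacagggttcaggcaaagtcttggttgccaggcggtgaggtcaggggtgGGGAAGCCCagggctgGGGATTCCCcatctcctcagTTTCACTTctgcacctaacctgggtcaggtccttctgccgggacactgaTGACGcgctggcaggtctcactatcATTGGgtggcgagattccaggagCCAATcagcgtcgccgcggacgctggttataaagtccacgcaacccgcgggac
B2m: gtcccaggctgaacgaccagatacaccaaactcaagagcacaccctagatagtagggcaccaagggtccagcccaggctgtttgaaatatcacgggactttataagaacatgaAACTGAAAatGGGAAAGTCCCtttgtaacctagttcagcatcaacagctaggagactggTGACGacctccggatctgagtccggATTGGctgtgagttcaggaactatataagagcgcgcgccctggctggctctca
Tap1: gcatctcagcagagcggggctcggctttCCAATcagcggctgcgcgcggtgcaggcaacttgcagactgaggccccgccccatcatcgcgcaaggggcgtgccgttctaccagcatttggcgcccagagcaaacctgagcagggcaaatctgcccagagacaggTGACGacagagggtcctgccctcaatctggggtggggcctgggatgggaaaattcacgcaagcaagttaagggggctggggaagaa

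**Figure D3:**
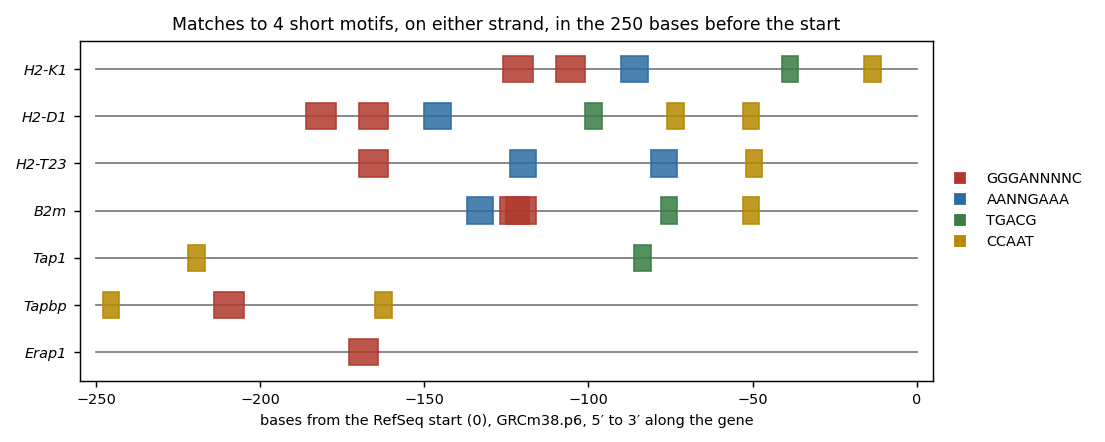
Position of motif matches on either strand in the 250 bases before the start of transcription of the 7 members in the promoter table, in bases from the start. *H2-K1* and *H2-D1* share a run of matches 60 bases apart, and *H2-D1* has a further CCAAT match after it.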

How the data were processed

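The authors deposited gene counts and FPKM with the length of each gene; per the submitters' processing notes these came from HISAT2 2.0.5, StringTie 1.3.3b and featureCounts 1.5.0-p3. The deposited FPKM equal counts per gene length and library total times a constant per library (0.943 to 1.12). Tables were prepared in pandas 2.3.3 under Python 3.11.15, and counts tested in edgeR 4.0.16 under R 4.3.3: filterByExpr, TMM, 1 quasi-likelihood fit of 18 libraries by group without pairing, and Benjamini-Hochberg adjustment over 13691 genes. The common dispersion was 0.00192. Standard errors come from the spread of log2 CPM (prior count 2) within groups. No column of values was left unmatched to a sample.

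Alternatives were DESeq2 1.42.0, the compared groups only, RLE factors or total library size, no filter or a mean of at least 50 counts, a replicate block, limma 3.58.1 on log2(FPKM + 1) and log2(FPKM + 0.1), call limits on the fold change, and leaving out each library.

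The members and the lists were chosen with earlier results of these data known. Named are all 9 members, and of each list up to 4 called genes with the largest log2FC in PIC against control (mean of at least 50 counts) and the largest called in each TBHQ comparison with a stimulus. The lists are other class I chains, folding and quality control, trimming enzymes, immunoproteasome and PA28, constitutive proteasome subunits, promoter factors, class II, and markers of macrophages, T cells, B cells, dendritic cells, fibroblasts and epithelium. Also named, after seeing the data, are list genes called for the difference of the TBHQ effect, and *Zbtb46*, a called marker below that mean. A gene that this rule selects among the promoter factors is not reported here, though the counts of that list include it. Running the named list genes through the alternatives, and placing libraries by counts per library total, were chosen after seeing the data. Figures were drawn with matplotlib 3.10.9.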

Additional observations from a re-analysis of the deposited data

Results flagged for a closer look

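The fall of *Tapbp* with TBHQ was smaller after PIC than after LPS, and the test of that difference passed (0.29 on the log2 scale, edgeR, FDR = 0.000724). The same test passed for *H2-T23* (0.27, FDR = 0.0221), where the FDR ran from 0.00897 to 0.0962 as single libraries were left out. The cause of either difference was not tested.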

How the results depend on the processing

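The 9 members in 8 comparisons give 72 log2 fold changes. All 72 kept direction and side of the threshold with a replicate block, 71 with the compared groups only, 70 with RLE factors, 70 with a mean of at least 50 counts, 68 with DESeq2, 68 without a filter, 66 in limma with either pseudocount and 57 with total library size. Of 486 values with a library left out, 451 kept both.

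The number of members called was 0 in all 8 comparisons with an absolute log2FC above 1 or with the threshold of the study, since the largest change was 0.95. edgeR had called 9, 8, 9, 9, 7, 5, 8 and 2, DESeq2 8, 8, 9, 8, 7, 5, 7 and 3, and 9, 8, 9, 9, 7, 6, 9 and 7 had an unadjusted p below 0.05, in the order in which the next paragraph lists the comparisons. With total library size 1 member was called in PIC against LPS and 4 for the difference, and in limma 1 for the difference with log2(FPKM + 1) and 1 with log2(FPKM + 0.1). Shares of all genes were determined by FDR in the main edgeR fit only. The counts at an unadjusted p and in other settings have no such share beside them.

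Leaving out 1 library gave 8 to 9 members for LPS against control, 8 to 8 for PIC against control, 8 to 9 for TBHQ against control, 8 to 9 for LPS+TBHQ against LPS alone, 7 to 7 for PIC+TBHQ against PIC alone, 4 to 6 for PIC against LPS, 6 to 8 for PIC+TBHQ against LPS+TBHQ and 1 to 3 for the difference. The replicate block gave the counts 9, 8, 9, 9, 7, 5, 8 and 2. Deviations of libraries with the same number correlated at -0.0719 to 0.142. In LPS+TBHQ against LPS (0.0702, 0.0218 and 0.142) each library correlated best with that of its own number. The same held in PIC+TBHQ against LPS+TBHQ (0.0171, 0.0496 and 0.0933), but not throughout the other comparisons. As the values were low, replicate numbers were not read as pairs.

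Some values changed sign. With total library size *Tap2* in PIC+TBHQ against PIC became 0.047, and in PIC against LPS *H2-K1* became -0.015, *Nlrc5* -0.0023 and *Erap1* -0.092, while after PIC against control *Bcap31* became -0.089 and *Cd74* -0.036. With single libraries left out *Tap2* in PIC+TBHQ against PIC ran from -0.13 to 0.033, positive without replicate 2 of PIC (0.033) or replicate 1 of PIC+TBHQ (0.010). *Tap2* in PIC against LPS ran from -0.13 to 0.029, with 0.0082 without replicate 3 of LPS and 0.029 without replicate 1 of PIC. For *Nlrc5* the difference of the TBHQ effect ran from -0.022 to 0.090, negative without replicate 1 of LPS (-0.022) and without replicate 3 of LPS+TBHQ (-0.014). The cause was not tested.

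Each group has 3 libraries, and differences between the heavy chains, which share sequence, were not tested. RNA levels say nothing of protein at the cell surface, which was not analysed here.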
